A study of Arabidopsis thaliana with 6 samples.

Results

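AT5G19230, AT5G19240 and AT5G19250 lie next to each other on chromosome 5 of *Arabidopsis thaliana* and are annotated as GPI-anchored proteins. These 3 loci were taken as members, and a locus counts as measured where at least 1 probe set is annotated with that locus and no other. By that rule 2 of the 3 were measured, AT5G19240 and AT5G19250, each by 1 probe set of the 13513 that name 1 gene. AT5G19230 has no such probe set and was not analysed here. AT5G19240 was chosen by its log2 fold change, for its rise in the mutant on these same arrays, so its values are a description, no p is given for it, and its place in the fit over all probe sets supports nothing here. AT5G19250 was joined to it by position and family.

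RNA came from inflorescences with young flower buds of 3 *tink/ibr5-6* and 3 L*er* plants, each plant being 1 sample on 1 Affymetrix ATH1 array. Both groups share the Landsberg *erecta* (L*er*) background. The *tink/ibr5-6* allele carries a G-to-A change, made with the mutagen EMS, that replaces the active-site cysteine of the MAPK phosphatase IBR5 by tyrosine, and it was isolated in *klu-2* plants and freed of *klu-2* by 3 backcrosses to L*er*. Plants of the mutant group therefore descend from 1 mutagenised line, and other changes of that line that stayed after the backcrosses cannot be told apart from *ibr5-6*. The age of the plants is not stated in the sources.

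A GPI anchor is a glycolipid that is built in the endoplasmic reticulum and joined to the end of a protein by an enzyme complex, the GPI transamidase. It holds the protein at the outer face of the plasma membrane, towards the cell wall. In plants such proteins include arabinogalactan proteins, COBRA-like proteins and co-receptors of receptor kinases, and they are known for roles in cell wall assembly, directional growth and the pollen tube. The proteins of the tandem genes have no well-known function. The annotation that the study attached to AT5G19240 describes it as a putative GPI-anchored protein with a domain like that of PR-1, a pathogenesis-related secreted protein.

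Values were gcrma values, a signal per probe set on a log2 scale, of which the lowest in the table was 2.10. Over 22746 probe sets, the correlation (r) was 0.996 to 0.998 for arrays of 1 genotype and 0.972 to 0.985 for arrays of different genotypes. These are correlations across genes, which are no independent replicates. The rule for a call was an adjusted p under 0.05 (limma, Benjamini-Hochberg over all probe sets) and a log2 fold change beyond 1 in either direction. By this rule 4.25% of all probe sets were called, 1.53% as higher and 2.71% as lower in *tink/ibr5-6*. The median log2 fold change of all probe sets was 0.00. How the plants were placed and grown relative to each other is not stated, and p-values therefore measure only the spread between these plants.

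Transcripts of AT5G19240 were near the lowest signal in L*er* inflorescences and well above it in *tink/ibr5-6*. The 3 L*er* arrays had log2 values of 3.21, 3.15 and 3.38. The 3 *tink/ibr5-6* arrays had log2 values of 7.35, 7.05 and 6.80. Every mutant array lay above every wild-type array, with a gap of 3.42 on the log2 scale between the lowest mutant and the highest wild-type value, whereas values within a genotype spanned 0.56 in *tink/ibr5-6* and 0.23 in L*er*. The mutant mean was 7.07 ± 0.28 (SD, n = 3) and the wild-type mean 3.24 ± 0.12 (SD, n = 3). The log2 fold change was 3.82, or 14.2-fold. When each mutant array was divided by each wild-type array, the 9 folds ran from 10.7 to 18.5. Of all 22746 probe sets, 3 had a higher log2 fold change. The L*er* mean lay 1.14 above the lowest signal on the log2 scale, and gcrma values so close to it follow transcript levels less well, so the size of the fold is less certain than its direction. In RNA from whole inflorescences, a change in the number of cells that express a gene and a change in RNA per cell cannot be told apart.

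The adjacent AT5G19250 had a clear signal in the wild type already and was slightly higher in the mutant. Its log2 values were 9.23, 9.43 and 9.40 in L*er*. In *tink/ibr5-6* they were 9.88, 9.83 and 9.73. The arrays did not overlap, but the gap between the genotypes was only 0.29 on the log2 scale, beside ranges of 0.15 within *tink/ibr5-6* and 0.21 within L*er*. The mutant mean was 9.81 ± 0.08 (SD, n = 3) and the wild-type mean 9.35 ± 0.11 (SD, n = 3). The log2 fold change was 0.46 (95% interval 0.26 to 0.66, standard error 0.07, adjusted p = 0.025 from limma), which is 1.37-fold. It passed the limit on the adjusted p and not the limit on the fold change, and was therefore not called.

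The fit over all probe sets includes AT5G19240, and by its rule 1 of the 2 measured members was called, AT5G19240, beside 1.53% of all probe sets called as higher. Nothing can be read from that count, since the gene was chosen for this change. An adjusted p under 0.05 with a higher mean in *tink/ibr5-6*, as AT5G19250 had, was found for 9.60% of all probe sets, and 21.3% had all 3 mutant arrays above all 3 wild-type arrays. An exact permutation test (two-sided) of the 6 values of AT5G19250 gave p = 0.1, the smallest that 3 arrays against 3 allow. The adjusted p of AT5G19250 rose above 0.05 when any 1 array except L*er* replicate 1 was left out, to between 0.054 and 0.091, with log2 fold changes of 0.42 to 0.50 (from limma). The change of AT5G19240 exceeded that of AT5G19250 by 3.37 on the log2 scale, which is a description only because of how AT5G19240 was chosen.

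**Figure D1:**
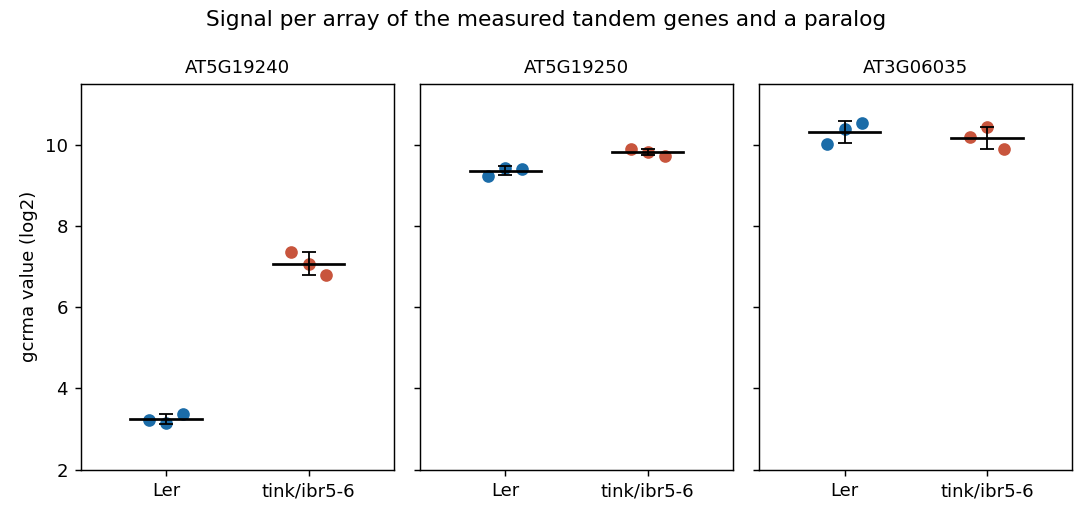
The gcrma value (log2) on each array is plotted for AT5G19240, AT5G19250 and the paralog AT3G06035, with L*er* in blue, *tink/ibr5-6* in red, a horizontal bar for the mean and whiskers for the SD (n = 3). For AT5G19240 the mutant arrays lie at 6.80 to 7.35 and the wild-type arrays at 3.15 to 3.38, for AT5G19250 the separation is narrow, and for AT3G06035 the genotypes overlap.

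AT3G06035, on chromosome 3, encodes a further putative GPI-anchored protein of this family and did not follow AT5G19240. It was picked by hand from general knowledge of the family, and further paralogs were not sought. Its log2 values were 10.20, 10.43 and 9.89 in *tink/ibr5-6*, and 10.02, 10.39 and 10.54 in L*er*. The genotypes overlapped, and 3 of the 9 pairs of arrays had the higher value in the mutant. The mutant mean was 10.17 ± 0.27 (SD, n = 3) and the wild-type mean 10.32 ± 0.27 (SD, n = 3), which gives a log2 fold change of -0.15 (95% interval -0.71 to 0.41, adjusted p = 0.78 from limma). The interval leaves room for changes of up to 1.33-fold upwards. Its distance from the 14.2-fold of AT5G19240 is a description only, because of how AT5G19240 was chosen. The probe sequences were not used here, so whether transcripts of AT5G19230 or of the other relatives also bind the probes of AT5G19240 or AT5G19250 was not tested.

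No comparable change was seen in the few measured genes among the 10 on either side of the tandem on chromosome 5. Of these annotated genes 6 were measured and none was called, beside 4.25% of all probe sets. At an adjusted p under 0.05 alone 1 was higher, beside 9.60% of all probe sets. Counts over 6 genes are too small to be set apart from these shares. Genes further along the chromosome are not part of these counts. Their median log2 fold change was 0.04, and their log2 fold changes ran from -0.11 to 0.79. None of them directly borders the tandem, because the genes on both sides of it were not analysed here. On the side of AT5G19230, AT5G19210 had a log2 fold change of -0.11 (95% interval -0.41 to 0.19, adjusted p = 0.63 from limma). TSC10B, whose product acts in the synthesis of sphingoid bases, stayed close to the lowest signal on every array, with 2.12 to 2.17, so that no change could be measured.

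On the side of AT5G19250, AT5G19270 was likewise close to the lowest signal, with log2 values of 2.10 to 2.14. AT5G19290 had log2 values of 11.14 to 11.38 over the 6 arrays and a log2 fold change of 0.08 (95% interval -0.11 to 0.27, adjusted p = 0.59 from limma). AT5G19300 had the largest change among the measured neighbours. Its log2 values were 7.16, 6.88 and 7.09 in *tink/ibr5-6* against 6.32, 6.37 and 6.07 in L*er*, without overlap. The log2 fold change was 0.79 (95% interval 0.46 to 1.11, adjusted p = 0.022 from limma), past the limit on the adjusted p and under that on the fold change. The adjusted p rose to between 0.054 and 0.077 when any 1 array except *tink/ibr5-6* replicate 2 was left out, and to 0.123 with the replicate number as a block (from limma). CHR23, which encodes a chromatin remodelling ATPase, had a log2 fold change of 0.15 (95% interval -0.38 to 0.67, adjusted p = 0.75 from limma), and its arrays overlapped.

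**Figure D2:**
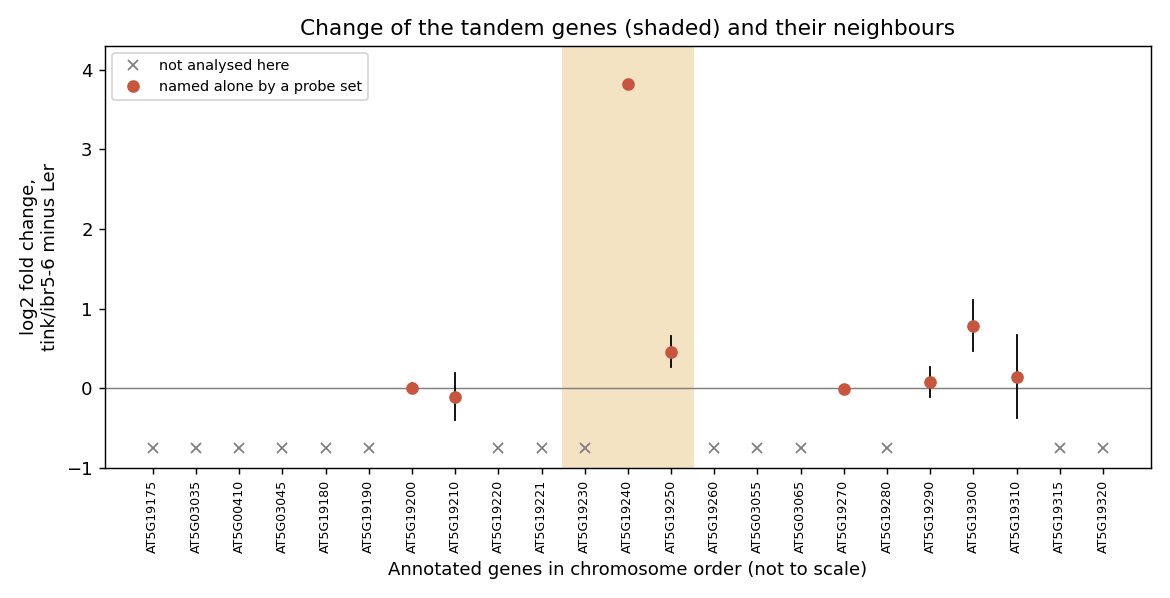
The log2 fold change (*tink/ibr5-6* minus L*er*) is plotted for the annotated genes in chromosome order around the tandem (shaded), with 95% intervals from limma except for AT5G19240, which was chosen for its change. Crosses mark genes not analysed here; AT5G19240 stands at 3.82, and the measured genes outside the shaded part lie between -0.11 and 0.79.

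The pair of AT5G19240 and AT5G19250 can be set beside other adjacent genes. Of 176 measured protein-coding neighbours of the other genes called as higher, 18 (10.2%) were themselves higher at an adjusted p under 0.05, and their median log2 fold change was 0.01. Over all 11628 neighbours of measured genes the share was 9.75%. A gene with measured neighbours on both sides enters more than once in these counts, which were made after the values had been seen and are given with no test.

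Genes for making and attaching GPI anchors did not differ detectably between the genotypes. Of 10 such genes 8 were measured, none was called and none had an adjusted p under 0.05 in either direction (limma; none at an unadjusted p under 0.05 either). Their log2 fold changes ran from -0.11 to 0.05 with a median of -0.01. *SETH1* and *SETH2* encode subunits of the enzyme that makes the first intermediate of the anchor, and both are known to be needed for pollen germination and tube growth. *SETH2* had a log2 fold change of 0.04 (95% interval -0.11 to 0.19, adjusted p = 0.76 from limma). *SETH1* was close to the lowest signal, at 2.93 to 3.29 over the 6 arrays, and its log2 fold change was 0.05.

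The other measured genes of this list encode subunits of the GPI transamidase. GPI8 is its catalytic subunit, and its gene had log2 values of 7.70, 7.87 and 7.83 in *tink/ibr5-6* and 7.78, 7.76 and 7.90 in L*er*. The genotypes overlapped, and the log2 fold change was -0.02 (95% interval -0.19 to 0.16, adjusted p = 1.0 from limma). The genes of the subunits GPI16, PIGS and PIGU had log2 fold changes of 0.01, -0.03 and -0.03, with 95% intervals that all lay between -0.09 and 0.07. *GAA1*, which lies on chromosome 5 not far from the tandem, was the least precise, with -0.11 and an interval of -0.64 to 0.43. A second PIGU-like gene, AT1G12730, stayed close to the lowest signal. Of this list, the genes other than GPI8 and GPI16 were picked for naming once their values were known.

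Other families of GPI-anchored proteins could hardly be assessed with the annotation used here, by which 2 of 52 listed genes were measured and neither was called. The study's own gene ontology analysis of these arrays lists the term for proteins anchored to a membrane as enriched. How far the genes of that term overlap with the 52 was not examined here. *COB*, which encodes COBRA, a protein of oriented cell expansion, had log2 values of 9.69, 9.91 and 9.63 in *tink/ibr5-6* and 9.22, 9.50 and 9.21 in L*er*. These did not overlap, and the log2 fold change was 0.43 (95% interval 0.11 to 0.76, adjusted p = 0.091 from limma). *SKU5*, a gene of directional root growth, had a log2 fold change of 0.20 (95% interval -0.06 to 0.46, adjusted p = 0.26 from limma), and its arrays overlapped. Neither gene passed the test over all probe sets, but for *COB* this depended on the setting. With the same log2 fold change, its adjusted p was 0.028 and 0.019 when a mean log2 value of at least 4 or 6 was required, and 0.048 with the replicate block (from limma). AT5G19250, with its log2 fold change of 0.46, was of a size with *COB*.

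**Figure D3:**
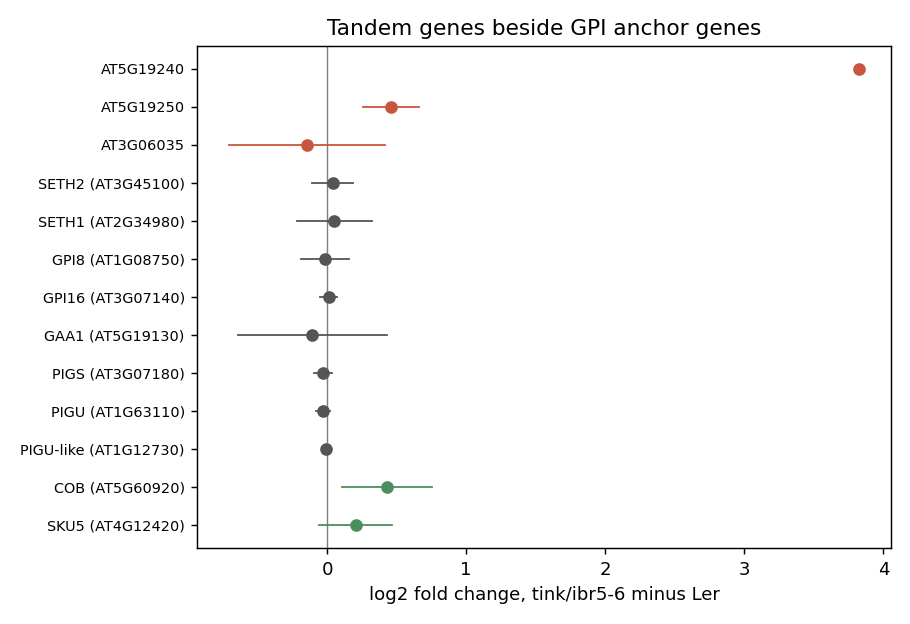
The log2 fold change (*tink/ibr5-6* minus L*er*) is plotted with 95% intervals from limma for the measured tandem genes and their paralog (red), genes of GPI anchor assembly and attachment (grey) and other genes of GPI-anchored proteins (green). AT5G19240, shown without an interval because it was chosen for its change, stands at 3.82, and the grey genes lie between -0.11 and 0.05.

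Genes with a pattern like that of AT5G19240 were sought over the 6 arrays. Likeness was the root mean square difference between log2 values set to the mean of the L*er* arrays, so that both the size of the change and the spread of the arrays count. The nearest of the measured genes was AT1G13650, with a difference of 0.25. It had log2 values of 7.26, 7.14 and 6.94 in *tink/ibr5-6* and 3.28, 3.75 and 3.53 in L*er*. As for AT5G19240, the genotypes did not overlap and the wild-type arrays were not far above the lowest signal.

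AT2G40435 followed with a difference of 0.50. The dehydrin gene *LTI30*, whose product protects membranes in cold and drought, differed by 0.61. AT5G18840, of a family of sugar transporters, differed by 0.64 and AT1G29270 by 0.76. These genes were selected for their likeness to a gene that was itself selected for its rise, so they are named as a description and not tested. AT5G19250 ranked 1201 in this order with a difference of 2.38, and AT3G06035 ranked 10936 with 2.82. These distances largely restate the differences in log2 fold change given above and support nothing further.

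**Figure D4:**
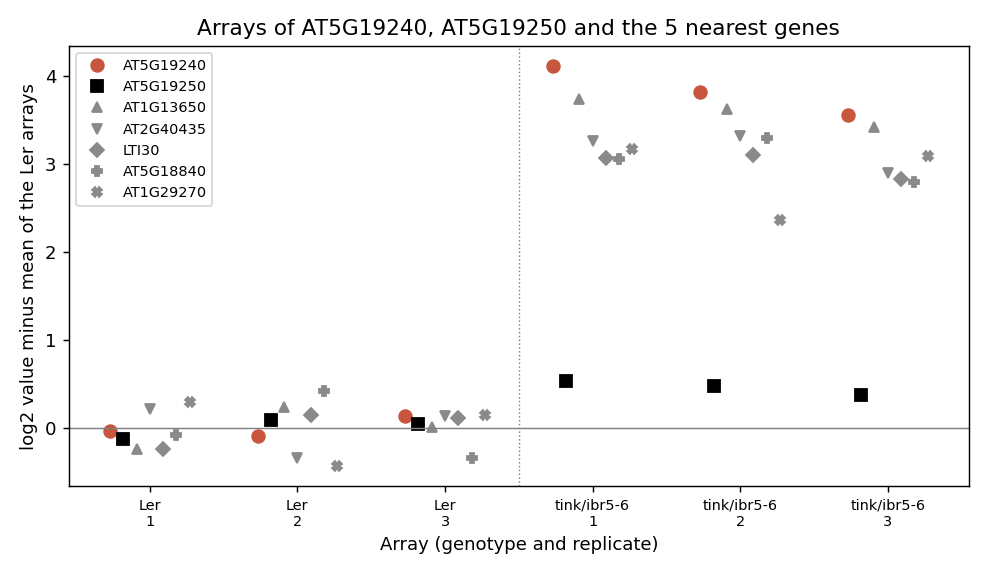
Log2 values minus the mean of the L*er* arrays are plotted for each of the 6 arrays, for AT5G19240 (red circles), AT5G19250 (black squares) and the 5 genes nearest to AT5G19240 (grey symbols). On the *tink/ibr5-6* arrays AT5G19240 and the grey genes lie well above 0, while AT5G19250 lies close to 0.46.

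Measured markers of pollen and the pollen tube were mostly lower in *tink/ibr5-6*, while few markers of other kinds were measured. Of 17 genes of pollen and the pollen tube 7 were measured and 4 were called lower (limma), beside 2.71% of all probe sets. None was called higher and 3 were not called, and the median log2 fold change was -3.18. The count called in this list was 0 with the replicate block, 1 when a mean log2 value of at least 6 was required and 2 at an adjusted p under 0.01. Over all probe sets tested, these settings called 133, 632 and 366, against 966 by the main rule. The mean log2 value over these 7 probe sets ran from 2.78 to 3.55 in *tink/ibr5-6* and from 5.93 to 6.61 in L*er*, and *BUPS2* was close to the lowest signal on every array. For the tapetum and early anther, 2 of 12 listed genes were measured and neither was called, with a mean log2 value of 10.56 to 10.94 in *tink/ibr5-6* and 10.16 to 10.17 in L*er*. *AMS*, which encodes a transcription factor of tapetum development, had log2 values of 8.39, 8.89 and 8.72 in *tink/ibr5-6* and 7.79, 7.83 and 7.70 in L*er*, without overlap. Its log2 fold change was 0.89 (95% interval 0.50 to 1.28, adjusted p = 0.025 from limma), past the limit on the adjusted p only. It was called without *tink/ibr5-6* replicate 1, at 1.03, while its adjusted p was 0.061 to 0.090 when any other array was left out and 0.106 with the replicate block (from limma). The part of these shifts in the values of AT5G19240 and AT5G19250 was not tested. *A9*, a gene of the tapetum, had log2 values of 12.74, 13.00 and 12.96 in *tink/ibr5-6* and 12.53, 12.51 and 12.62 in L*er*. Such levels are a measured sign of young anthers in the labelled tissue. The genotypes did not overlap, and the log2 fold change was 0.35 (95% interval 0.13 to 0.56, adjusted p = 0.060 from limma). The adjusted p was 0.045 with centred arrays and 0.032 without *tink/ibr5-6* replicate 1. It was 0.024 and 0.019 after leaving out probe sets whose mean lay under 4 or 6. The other alternatives gave 0.060 to 0.169 (from limma). None of 11 genes of floral organ identity and 1 of 16 genes of defence were measured. The latter, *PDF1.2*, a defensin gene that responds to jasmonate and ethylene, had values of 3.35 to 3.52 and was not called.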

How the data were processed

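Inflorescence RNA of 3 *tink/ibr5-6* and 3 L*er* plants was hybridised to Affymetrix ATH1 arrays. The authors normalized the arrays with gcrma (its version is not stated in the sources), and the deposited log2 values, 1 for each probe set on each array, were taken as they are. After removal of 64 controls from 22810 probe sets, 22746 were tested. Of these, 13513 are annotated with 1 gene and 503 with several, and 8730 are not in the annotation. Loci and gene order came from RefSeq (TAIR10.1). Protein and promoter sequences were not used here.

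The genotypes were compared by limma (3.58.1, under R 4.3.3, with lmFit and eBayes) over all tested probe sets, with the thresholds of the methods. The fit was also run on simulated data, only as a check of the code, and no result here rests on that run. Other steps used Python 3.11.15, numpy (2.4.6), pandas (2.3.3) and, for figures, matplotlib (3.10.9). The number of arrays limits the precision. The text names all members, a paralog, measured genes among 10 neighbours on either side, the 5 genes nearest to AT5G19240, and up to 4 called and 2 other genes of each list, with calls in the pollen and tapetum lists given mainly as counts. The members and lists were chosen with earlier results of these data known. Alternatives were quantile normalization, centred arrays, minimum mean log2 values of 4 or 6, array weights, a robust prior with a trend, a block for the replicate number, fewer probe sets, other thresholds, and leaving out each array.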

Additional observations from a re-analysis of the deposited data

How the results depend on the processing

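The log2 fold change of AT5G19240 was 3.68 to 3.96 when 1 array was left out and 3.89 after quantile normalization. It kept its direction under every alternative that gave it a value. Because the gene was chosen for this rise and its genotypes lie 3.42 apart on the log2 scale, that outcome was given beforehand and supports nothing. The log2 fold change of AT5G19250 was 0.40 to 0.50 over all alternatives. Its adjusted p lay under 0.05 in 11 of 17 settings, the reported one included (0.0048 to 0.139 by limma). The settings that only change a threshold reuse the reported fit, so its adjusted p of 0.025 enters that count more than once. It does not pass the limit of 0.01. With no limit on the fold change AT5G19250, at 0.46, was also called, which makes 2 members called. No member was called when a mean of at least 6 was required, where AT5G19240 is left out (0 members), nor with the replicate block (0 members).

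The count of 966 called probe sets was 632 when a mean of at least 6 was required, 493 over those with 1 named gene, 366 at an adjusted p under 0.01, 3697 with no limit on the fold change, and 518 to 746 when 1 array was left out. With the replicate block it was 133. Whether the replicate numbers pair the plants is not stated. Deviations from the group means correlated between same-numbered arrays with r of -0.30, 0.02 and -0.05, and between the others with -0.22 to 0.25. These few values show no sign of pairing but cannot exclude it. With the block AT5G19250 had an adjusted p of 0.139.

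Signs turned only for genes with changes near 0. TSC10B had -0.0058 with centred arrays and -0.0011 with array weights, and GPI16 had -0.010 after quantile normalization. Leaving out 1 array gave ranges that cross 0 for TSC10B (-0.016 to 0.015), AT5G19270 (-0.017 to 0.00031), GPI8 (-0.050 to 0.035), SETH1 (-0.049 to 0.13) and GAA1 (-0.26 to 0.041). Comparisons that need AT5G19230 were not run, since it was not measured, and lists by gene description were not built, since the tables used here hold none.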
